A study of Rattus norvegicus with 6 samples.

Results

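Collagens are the main structural proteins of the extracellular matrix. Their chains share long repeats in which glycine returns at a fixed interval, and chains wind around each other into a triple helix inside the cell before they are secreted, trimmed and crosslinked. Fibrillar collagens form the ropes of connective tissue, basement membrane collagens form the sheet below epithelium and around capillaries, and the remaining types link, anchor or span membranes. In the pituitary, collagen-making cells such as fibroblasts, pericytes and capillary cells lie among the hormone cells.

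The genes described here are those whose single symbol in the array annotation was Col, digits, a and digits. The rule found 58 probe sets (groups of array probes read as a single value) for 41 collagen chain genes, out of 31042 probe sets and 14217 named genes. Each gene is represented by its probe set with the highest mean log2 value unless stated. By class, 11 genes were fibrillar, 7 belonged to the basement membrane (type IV, XV and XVIII chains) and 23 were other collagens. All 41 symbols were current gene symbols, and Col28a1, Col4a3 and Col6a4 were not analysed here.

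Transcripts were measured in organ cultures of rat pituitary, the gland that secretes growth hormone, prolactin and the gonadotropins. The samples were 3 control cultures and 3 cultures given 10 nM GnRH, the hypothalamic hormone that drives gonadotropin release, with 1 array each. The labels name no strain, age, sex, treatment time or vehicle. They also do not tell separate cultures or animals apart, so the p-values cover the spread between these 6 samples alone, which may be technical among the GnRH arrays and is not technical alone among the controls, as the next paragraph shows. All values are log2 of the deposited intensity, and a difference is the GnRH mean minus the control mean, over 3 arrays each. The test was limma, a linear model fitted to every probe set, with Benjamini-Hochberg adjustment over all 31042 and a threshold of 0.05.

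The controls were not alike: controls 1 and 2 differed from control 3, and control 3 lay nearer to the GnRH arrays. Its log2 values had a Pearson correlation across probe sets of 0.983 with control 1 and 0.986 with control 2, against 0.994 between those arrays, and of 0.988 to 0.991 with the GnRH arrays. Xist, the RNA of the inactive X chromosome, was at 3.91 and 3.66 in controls 1 and 2 and between 9.16 and 9.77 in the other arrays on its brightest probe set. The Y-linked gene Eif2s3y ran the other way, at 6.48 and 6.56 in controls 1 and 2 and between 2.06 and 2.76 in control 3 and the GnRH arrays. By these genes controls 1 and 2 had the pattern of male tissue, and control 3 and all GnRH arrays that of female tissue. Other probe sets with Y-linked symbols did not follow: a Uty probe set was at 6.27 and 6.31 in controls 1 and 2 and between 7.41 and 7.52 in the other arrays, and Sry ran from 4.75 to 5.13 over all arrays. Sex, read this way, thus went with treatment in 5 of the 6 arrays. Without control 3 sex and GnRH cannot be told apart, and control 3 is the 1 control with the pattern of the GnRH arrays. The median linear intensity ran from 64.5 to 67.0 over the 6 arrays. All 10 marker genes of the hormone cells, such as Gh1, Prl and Pomc, had mean values at or above the median of all probe sets. For collagens, control 3 lay below the mean of controls 1 and 2 by a median of -0.20 on the log2 scale over the 41 genes, against -0.047 over all probe sets. Results are therefore given also without control 3, against control 3 alone, and from a fit to all 6 arrays with the Xist level (high or low) as a term, which was added after the data were seen. That fit gives the same difference as control 3 alone, and so rests on that single control array.

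Start regions are shown first, from the RefSeq table of rat promoters (build GRCr8), which held 32 of the 41 genes. The genes shown are those with the smallest p-values among the 32. Col25a1, with the largest difference and the smallest p-value of the 41, had no entry there. Col4a2 and Col4a1, the chains of the main type IV collagen, start 77 bases apart on opposite strands, and the bases between the starts lie before both genes. The stretch between them is chr16:84885521-84885596 on the plus strand. Col1a2, a chain of type I collagen, is shown over the 250 bases before its listed start, chr4:33518307-33518556 on the plus strand. Its TATA box, at bases 81 to 86, lies far from the listed start. Listed starts were not checked against measured transcript ends, so a stretch shown here may hold transcribed bases. Col18a1, a basement membrane collagen, is shown over chr20:11473395-11473644 on the plus strand. Capitals mark matches on either strand to 4 motifs. The CCAAT box was searched by the letters of its name. The Egr motif was searched as GCGNGGGCG. The GC box was searched as GGGCGG. The last was the box known as TATA, which was searched as TATAAA.
Col4a2 and Col4a1: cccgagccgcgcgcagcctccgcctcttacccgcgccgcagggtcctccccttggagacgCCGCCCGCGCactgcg
Col1a2: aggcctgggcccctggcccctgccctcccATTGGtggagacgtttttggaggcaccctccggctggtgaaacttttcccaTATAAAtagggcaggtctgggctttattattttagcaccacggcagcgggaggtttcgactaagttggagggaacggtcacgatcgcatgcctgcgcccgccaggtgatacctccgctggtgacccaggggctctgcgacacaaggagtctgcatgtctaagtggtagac
Col18a1: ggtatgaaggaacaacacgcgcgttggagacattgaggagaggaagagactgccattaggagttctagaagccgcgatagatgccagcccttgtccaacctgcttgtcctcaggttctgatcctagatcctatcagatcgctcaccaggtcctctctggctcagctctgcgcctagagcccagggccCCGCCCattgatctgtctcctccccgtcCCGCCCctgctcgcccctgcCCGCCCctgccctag

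The stretch shared by Col4a2 and Col4a1 held a GC box at bases 61 to 66 and an overlapping Egr motif at bases 62 to 70, with a GC content of 78.9%. The Col1a2 stretch held a CCAAT box on the minus strand at bases 30 to 34 and a TATA box at bases 81 to 86. The Col18a1 stretch held GC boxes at bases 188, 216 and 236 and no match to the other motifs. Over the 250 bases before the listed start, a GC box was found in 18 of 32 collagen genes and in 32.4% of the 27457 genes of the table. The Egr motif, whose last letters can overlap a GC box, was found in 5 of 32 (Col4a1, Col4a2, Col5a3, Col11a2 and Col26a1) and in 4.53% of all. A CCAAT box was found in 9 of 32 and in 34.3% of all, and a TATA box in 4 and in 13.1%. These are matches of letters alone.

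No collagen chain gene passed the test between GnRH and control samples. The differences that came nearest were in a small group: Col1a2, Col3a1, Col4a1, Col4a2, Col16a1 and Col18a1 had higher means with GnRH, by 1.23-fold to 1.53-fold, and Col25a1 a lower one. Of 41 genes, 0 had a limma adjusted p under 0.05, against 0.464% of all probe sets (0.422% higher and 0.0419% lower). At an unadjusted p under 0.05 there were 6 higher and 1 lower, where 6.6% of all probe sets were higher and 5.66% lower (12.3% together). The 3 GnRH arrays lay above all controls in 5 genes (7.06% of all probe sets) and below all controls in 2 (9.62%, or 16.7% of all probe sets in either direction). Over the 41 genes the difference lay above 0 in 20 and below 0 in 21, with a median of -0.024, and the median over all probe sets was -0.025. Without control 3, 2 of the 41 passed (7.44% of all probe sets), namely Col6a1 and Col25a1, both lower, in a comparison where sex and GnRH cannot be told apart. Against control 3 alone 2 passed (0.854%), Col1a2 higher and Col25a1 lower. With the Xist level as a term 4 passed (1.17%): Col1a2, Col4a1 and Col5a2 higher and Col25a1 lower. With array weights 8 passed (9.73%): Col1a2, Col4a1, Col4a2, Col16a1 and Col18a1 higher and Col6a1, Col23a1 and Col25a1 lower. There control 2 counted most of all arrays (weight 2.72) and control 3 least (0.298), with control 1 at 0.749, so the control side rested mainly on control 2.

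**Figure D1:**
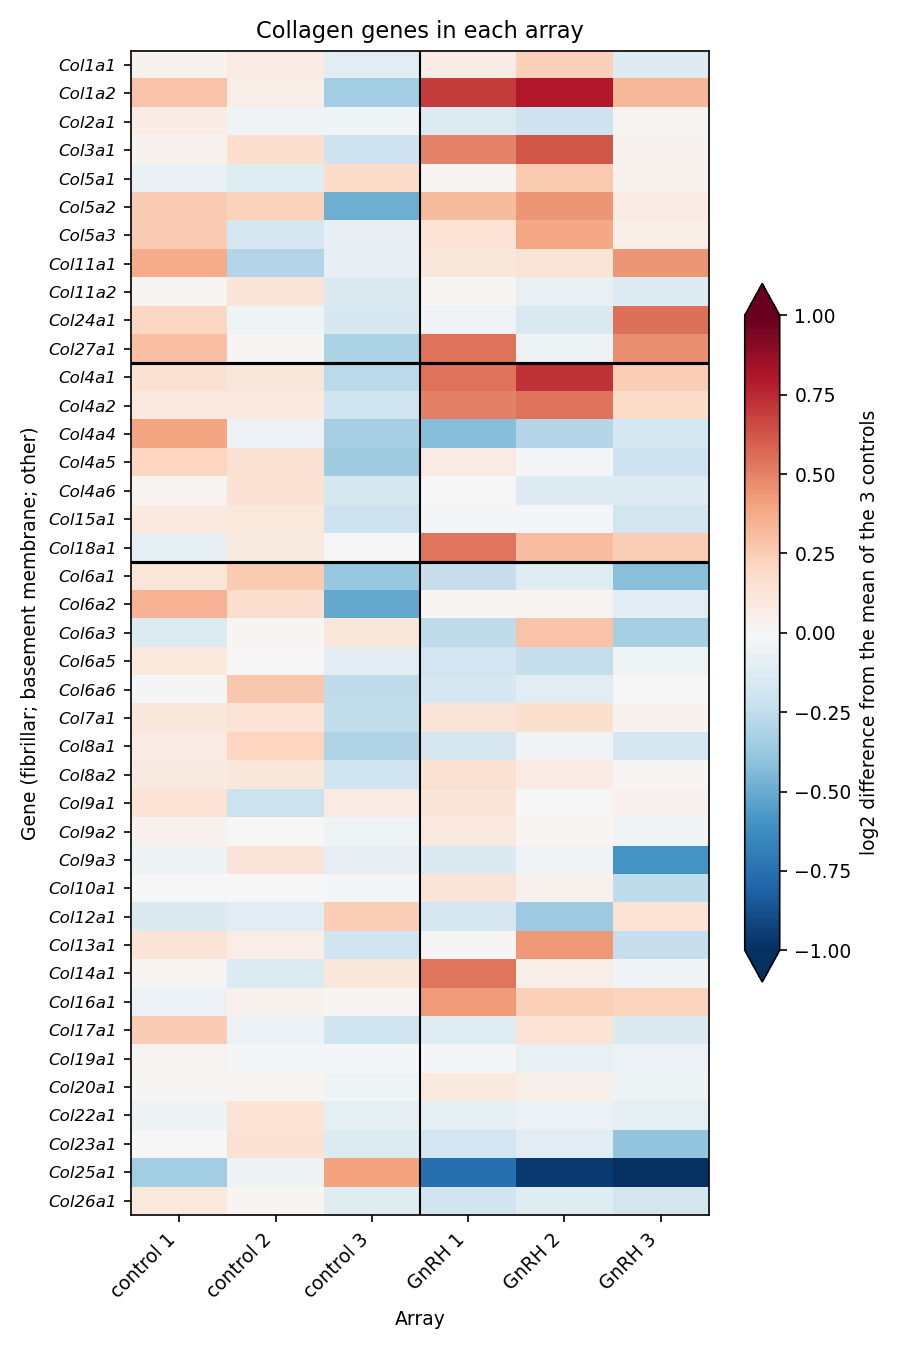
Each cell gives the log2 difference of a collagen gene in 1 array from the mean of the 3 controls, with the 41 genes in rows by class and the 6 arrays in columns; colours end at -1 and 1. Col1a2, Col4a1 and Col4a2 are red in all GnRH columns, Col25a1 is blue in all of them, and the control 3 column is blue for most genes.

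By class, the members lay as follows. Among fibrillar genes, 9 of 11 differences were above 0, with a median of 0.20 and a range from -0.11 to 0.61. Among basement membrane genes, 3 of 7 were above 0, with a median of -0.046 and a range from -0.30 to 0.50. Among the other collagens, 8 of 23 were above 0, with a median of -0.053 and a range from -1.10 to 0.30. The difference between classes was not tested. Control 3 was lower than controls 1 and 2 by a median of -0.22 in the fibrillar, -0.31 in the basement membrane and -0.13 in the other class. Without control 3, the medians were 0.15, -0.17 and -0.060. Against control 3 alone they were 0.28, 0.31 and 0.068, so the sign for the basement membrane and other classes depended on which controls were used.

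**Figure D2:**
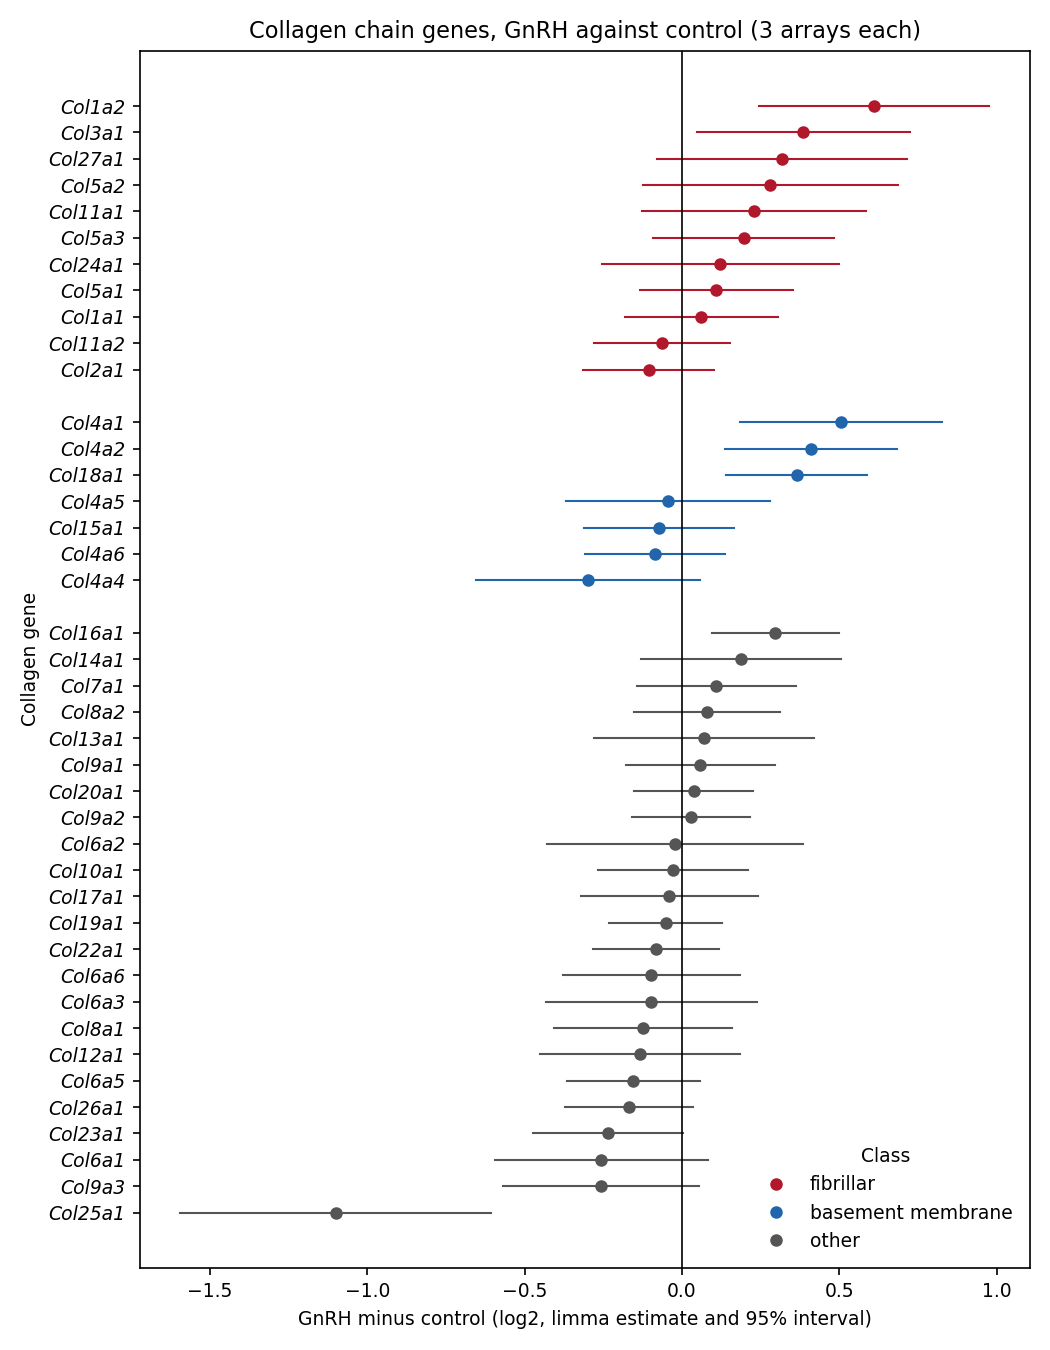
Points give the GnRH minus control difference of each of the 41 collagen genes on the log2 scale, with the 95% interval of the limma fit on 3 arrays a group, coloured by class and ordered by size within it. The intervals of Col1a2, Col3a1, Col4a1, Col4a2, Col16a1 and Col18a1 lie above 0 and that of Col25a1 below 0, before any adjustment for the number of probe sets.

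Type I collagen, the main fibre protein of connective tissue, is made from the products of Col1a1 and Col1a2, whose differences were 0.060 and 0.61. Col1a2 had log2 values of 7.72, 7.51 and 7.09 in controls 1 to 3 and 8.14, 8.24 and 7.78 with GnRH. Every GnRH array lay above every control. The difference was 0.61 ± 0.17 (SE), or 1.53-fold, with a limma adjusted p of 0.172. With the Xist level as a term it was 0.96 ± 0.17, which passed (limma adjusted p = 0.0252). Its second probe set gave 0.41 ± 0.10 (limma adjusted p = 0.141), from 6.83, 6.72 and 6.57 to 7.06, 7.26 and 7.03, again with no overlap. Col1a1 had 6.43, 6.47 and 6.28 in controls and 6.47, 6.63 and 6.26 with GnRH, so that the groups overlapped. Its difference was 0.060 ± 0.11, with a 95% interval from -0.18 to 0.30 (limma adjusted p = 0.856), and 0.14 ± 0.27 on its second probe set.

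These chains can also be set against each other within each array, by the log2 difference Col1a2 minus Col1a1. This difference moves if the chains change unequally, but also with noise or if the probe sets respond unequally to the same change. It was 1.30, 1.04 and 0.82 in controls and 1.67, 1.62 and 1.52 with GnRH; the absolute size of such a difference between probe sets has no meaning. It was larger with GnRH by 0.55, with all GnRH arrays above all controls. An exact 2-sided permutation test gave p = 0.10, the smallest that 3 arrays against 3 allow, and p = 0.333 after Benjamini-Hochberg adjustment over 5 chain pairs. The other pairs were chains of types IV, V and VI, and their changes ran from -0.094 (Col4a2 minus Col4a1) to 0.23 (Col6a2 minus Col6a1), with exact p from 0.20 to 1. The pairs were chosen after values were seen, and each chain was read on its brightest probe set alone. On the second probe sets the GnRH minus control differences of Col1a2 and Col1a1 lay nearer to each other, at 0.41 ± 0.10 and 0.14 ± 0.27.

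Col3a1, the chain of type III collagen found with type I in vessel walls and reticular fibres, had 7.17, 7.30 and 6.93 in controls and 7.64, 7.76 and 7.17 with GnRH. GnRH 3 lay among the controls, and the difference was 0.39 ± 0.15, or 1.31-fold (limma adjusted p = 0.346). Col5a2, a chain of the type V collagen that starts fibrils, lies next to Col3a1 in the GRCr8 gene table. It had 6.45, 6.43 and 5.71 in controls and 6.51, 6.64 and 6.28 with GnRH. Control 3 was the lowest array. The difference of 0.28 ± 0.18 (limma adjusted p = 0.567) became 0.037 without control 3 and 0.77 with the Xist level as a term (limma adjusted p = 0.0275). The second Col5a2 probe set gave less, 0.080 ± 0.19 (limma adjusted p = 0.895), with -0.089 without control 3 and 0.42 against it alone.

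Col5a1, the partner chain of Col5a2, depended on the probe set. The brighter probe set had 8.19, 8.15 and 8.45 in controls and 8.29, 8.52 and 8.30 with GnRH, a difference of 0.11 ± 0.11 (limma adjusted p = 0.722). The other had 6.67, 6.54 and 7.81 in controls and 7.73, 8.16 and 7.43 with GnRH, a difference of 0.77 ± 0.29 (limma adjusted p = 0.329). On both probe sets control 3 lay inside the GnRH range and above the other controls. Against control 3 alone the difference of the brighter probe set turned to -0.078.

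The other fibrillar genes had smaller or widely spread differences. Col27a1 had 0.32, Col11a1 0.23, Col5a3 0.20 and Col24a1 0.12, while Col11a2 had -0.064. Col2a1, the chain of cartilage type II collagen, had the largest fibrillar difference below 0. Its values were 6.30, 6.18 and 6.18 in controls and 6.08, 6.01 and 6.24 with GnRH, a difference of -0.11 ± 0.094 (limma adjusted p = 0.681). In all these genes the groups overlapped.

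**Figure D3:**
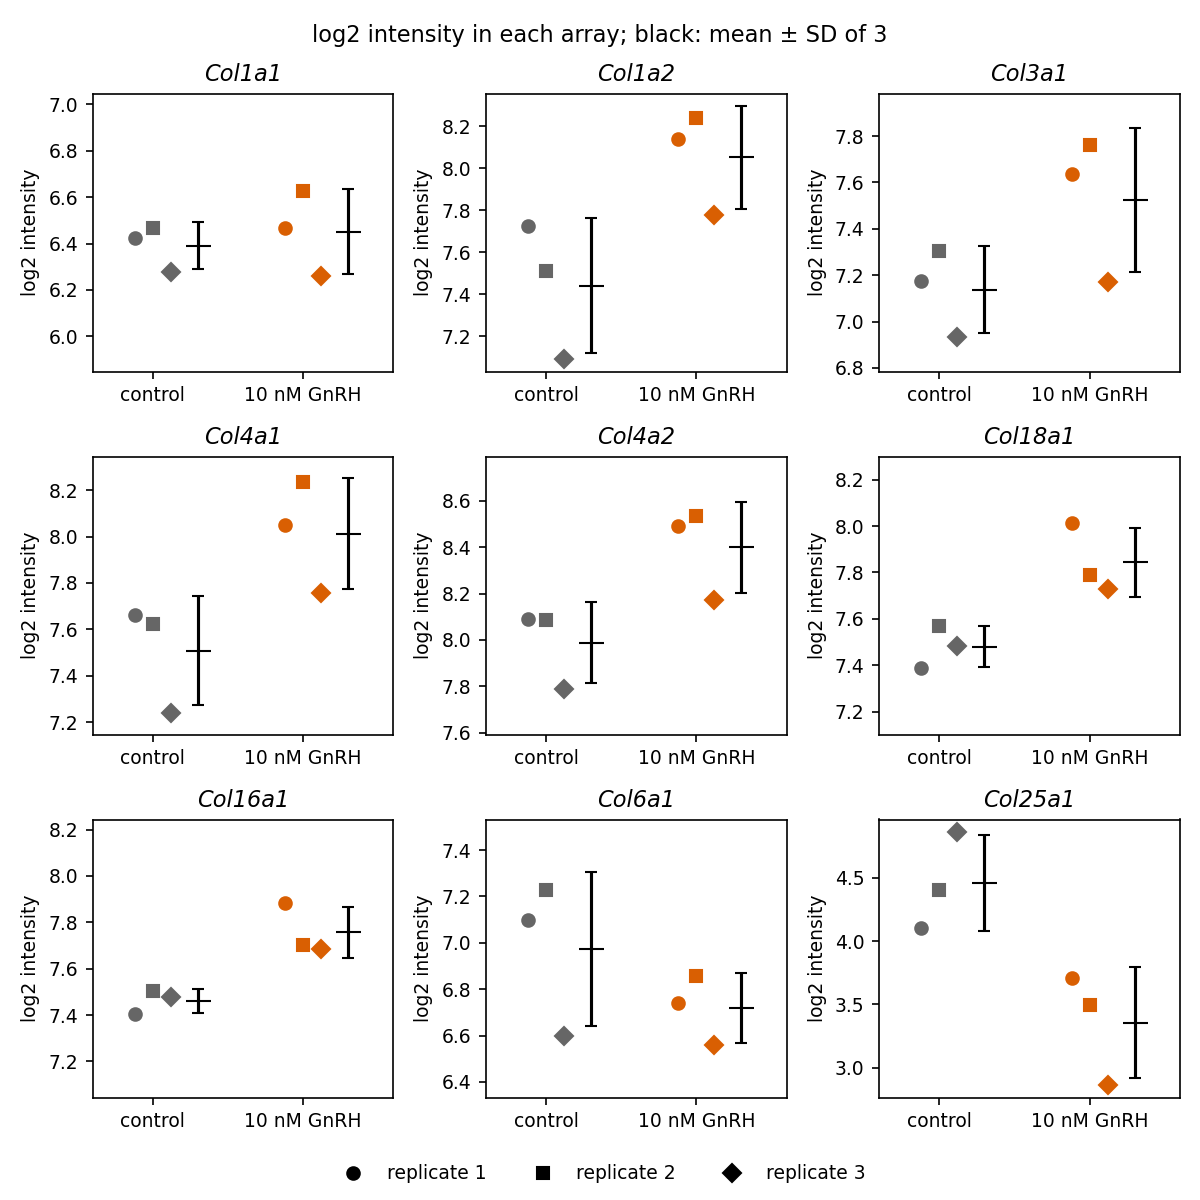
Points give the log2 intensity of 9 collagen genes in each of the 6 arrays, by group and replicate number, with the mean ± SD of 3 beside them; each panel has its own axis. GnRH points lie above all controls for Col1a2, Col4a1, Col4a2, Col18a1 and Col16a1 and below them for Col25a1, while the groups overlap for Col1a1, Col3a1 and Col6a1.

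Type IV collagen forms the network of every basement membrane, and its ubiquitous form is built from Col4a1 and Col4a2. Col4a1 had 7.66, 7.62 and 7.24 in controls and 8.05, 8.23 and 7.76 with GnRH. The groups did not overlap, and the difference was 0.50 ± 0.14, or 1.42-fold (limma adjusted p = 0.199). A second Col4a1 probe set gave 0.73 ± 0.16 (limma adjusted p = 0.0929), with GnRH 3, the lowest of its group, at 7.58 and control 2, the highest control, at 7.37. Col4a2 had 8.09, 8.09 and 7.79 in controls and 8.49, 8.53 and 8.17 with GnRH, a difference of 0.41 ± 0.12, or 1.33-fold (limma adjusted p = 0.221). Both genes had the same order of arrays: GnRH 2, GnRH 1 and GnRH 3 at the top and control 3 at the bottom. This order was not particular to the pair with the shared start region, as Col1a2, on another chromosome, had it too. Without control 3 the differences were 0.37 and 0.31, and against control 3 alone 0.78 and 0.61. With the Xist level as a term these last values had limma adjusted p-values of 0.0488 and 0.0801, so that Col4a1 passed and Col4a2 did not.

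The type IV chains of more restricted tissues had differences below 0. Col4a4, Col4a5 and Col4a6 had -0.30 ± 0.16, -0.046 ± 0.15 and -0.085 ± 0.10, with limma adjusted p-values of 0.486, 0.925 and 0.767. Col4a4 had 5.57, 5.11 and 4.84 in controls and 4.75, 4.88 and 5.00 with GnRH. Control 3 lay within the GnRH range, and against control 3 alone the difference was 0.035. Col4a5 and Col4a6, both on the X chromosome, also start near each other on opposite strands, and on the brightest probe set of each control 3 lay below every other array.

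Col18a1 and Col15a1 encode the related proteoglycan collagens of vessel and epithelial basement membranes, and the end of the Col18a1 protein is the source of endostatin. Col18a1 had 7.39, 7.57 and 7.48 in controls and 8.01, 7.79 and 7.73 with GnRH. The groups did not overlap, and the difference was 0.36 ± 0.10, or 1.29-fold (limma adjusted p = 0.185). Its second probe set gave 0.54 ± 0.14 (limma adjusted p = 0.141). On the brighter probe set control 3 differed from the mean of controls 1 and 2 by 0.0057, so that the difference was 0.37 without it and 0.36 against it alone. On the second, control 3 differed from that mean by -0.18, and the difference was 0.48 without control 3 and 0.66 against it alone. Col15a1 had 7.91, 7.92 and 7.61 in controls and 7.79, 7.79 and 7.63 with GnRH, a difference of -0.074 ± 0.11 (limma adjusted p = 0.815).

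Type VI collagen forms beaded filaments around cells. All 5 measured genes had differences below 0 and none passed. Col6a1 had 7.10, 7.23 and 6.60 in controls and 6.74, 6.86 and 6.56 with GnRH, a difference of -0.26 ± 0.15 (limma adjusted p = 0.529). Col6a2, its neighbour in the gene table, had 7.93, 7.74 and 7.07 in controls and 7.60, 7.61 and 7.46 with GnRH, a difference of -0.024 ± 0.18 (limma adjusted p = 0.971). The second Col6a2 probe set had 6.85, 6.78 and 6.61 in controls and 6.48, 6.48 and 6.52 with GnRH. There all GnRH arrays lay below all controls, with a difference of -0.26 ± 0.092 (limma adjusted p = 0.301). On the brighter probe set of Col6a2 and in Col6a1, control 3 was far below the other controls. Without it Col6a1 had -0.44, which passed (limma adjusted p = 0.0301), and the brighter Col6a2 probe set -0.28, which did not. The second Col6a2 probe set had -0.33 there and passed (limma adjusted p = 0.0413). In that comparison sex and GnRH cannot be told apart. Control 3 is the control with the Xist and Eif2s3y pattern of the GnRH arrays. Against it alone, Col6a1 and the brighter Col6a2 probe set turned in sign, to 0.12 and 0.49, while the second Col6a2 probe set had -0.12. Col6a3 had 6.52, 6.68 and 6.77 in controls and 6.41, 6.95 and 6.33 with GnRH, a difference of -0.098 ± 0.15 (limma adjusted p = 0.827). The differences of Col6a5 and Col6a6 were -0.15 and -0.098.

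Fibril-associated collagens sit on the surface of fibrils, and Col16a1 is a member of this kind. Col16a1 had 7.40, 7.50 and 7.48 in controls and 7.88, 7.70 and 7.69 with GnRH. The groups did not overlap, control 3 lay between the other controls, and the difference was 0.30 ± 0.091, or 1.23-fold (limma adjusted p = 0.231). Col14a1 had 0.19 on its brighter probe set and -0.16 on the other. Col9a3 had -0.26 and Col12a1 -0.13, and the other 5 measured genes of this kind lay between -0.082 and 0.058. In Col19a1 all GnRH arrays lay below all controls, with a difference of only -0.053 ± 0.081.

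Col25a1, a membrane-spanning collagen known from neurons and as the precursor of a plaque component, showed the largest difference of the 41 genes and the smallest p-value. It had 4.11, 4.41 and 4.86 in controls and 3.71, 3.50 and 2.86 with GnRH, with no overlap. The difference was -1.10 ± 0.22, 2.14-fold lower with GnRH (limma adjusted p = 0.0689). Control 3 was the highest of the controls here. Without it the difference was -0.90 and passed the test (limma adjusted p = 0.0249), and against it alone the difference was -1.50. The fit with the Xist level as a term gave -1.50 ± 0.25, which also passed (limma adjusted p = 0.0217). The glial marker Gfap, described with the markers, had the same order among the GnRH arrays, highest in GnRH 1 and lowest in GnRH 3, and its part in this difference was not tested. The probe set was dim: its mean of 3.91 lay below the median of 6.04 over all probe sets, and detection calls were not used here. With 16 added to each intensity before log2 the difference shrank to -0.53. The other membrane-spanning genes had -0.24 (Col23a1), -0.041 (Col17a1) and 0.070 (Col13a1).

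The remaining genes showed small differences. Col26a1 had -0.17, Col8a1 -0.12, Col7a1 (anchoring fibrils of the skin) 0.11, Col8a2 0.080 and Col10a1 -0.029. Of the 41 genes, 28 had a mean at or above the median of all probe sets: 10 of 11 fibrillar, 6 of 7 basement membrane and 12 of 23 others.

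Several genes had more than 1 probe set, which gives a check within the same arrays. Of 14 such genes, 10 had differences of the same sign on all probe sets and 4 did not: Col2a1, Col11a1, Col12a1 and Col14a1. The widest gap was in Col5a1, at 0.66 between its probe sets, and the narrowest in Col15a1, at 0.019. Of all 58 probe sets, 12 had an unadjusted p under 0.05, where 12.3% of all probe sets did, and 0 passed the adjusted threshold. Col1a2, Col4a1 and Col18a1 had an unadjusted p under 0.05 on both of their probe sets.

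**Figure D4:**
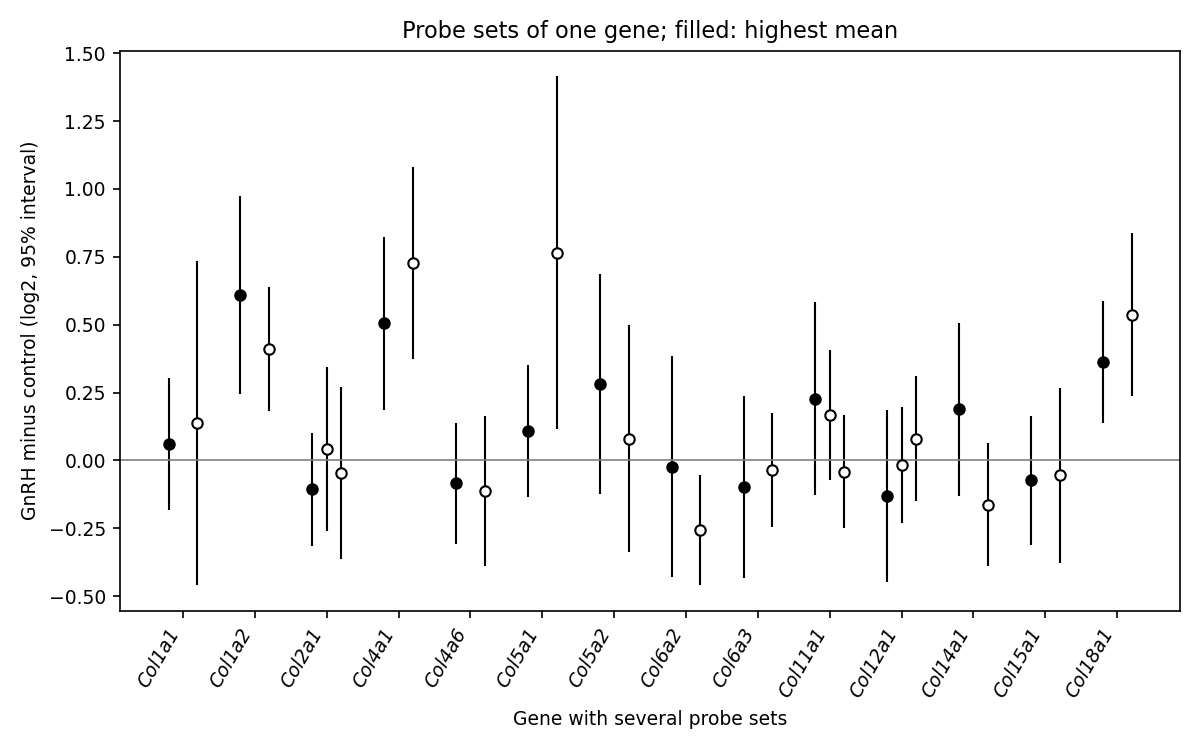
Points give the GnRH minus control difference on the log2 scale, with 95% intervals, of each probe set of the 14 collagen genes with several; the filled point is the probe set with the highest mean. Both probe sets lie above 0 for Col1a2, Col4a1 and Col18a1, and the probe sets of Col5a1 lie far apart at 0.11 and 0.77.

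Markers of cells that make collagen were read beside these results. In bulk cultures, fewer cells of a type and less RNA per cell cannot be told apart. For the counts below, 12.3% of all probe sets had an unadjusted p under 0.05 and 0.464% passed. For fibroblasts and pericytes, 0 of 16 measured markers passed (limma), with 2 at an unadjusted p under 0.05. Their median difference was -0.053. Their summed linear intensity was 1825 to 1912 in controls and 1690 to 1892 with GnRH. These were Dpt, the matrix protein dermatopontin, with a difference of 0.31 ± 0.098 (limma adjusted p = 0.241) and all GnRH arrays above all controls, and Pdgfra, a fibroblast receptor, with -0.51 ± 0.17 (limma adjusted p = 0.264). Pdgfra was at 7.03 in control 3 and 7.04 in GnRH 1 and 2. For endothelium, 0 of 10 passed, with 1 at an unadjusted p under 0.05, and the median difference was 0.025. The summed intensity of endothelial markers was 1339 to 1468 in controls and 1448 to 1589 with GnRH, lowest in control 3. For folliculostellate and stem-like cells, 0 of 9 passed, with 2 at an unadjusted p under 0.05, and the median was -0.18. Gfap, an intermediate filament of glia and folliculostellate cells, had the largest difference of any marker. It had 7.92, 8.97 and 8.94 in controls and 7.69, 6.47 and 5.76 with GnRH, a difference of -1.97 ± 0.42 (limma adjusted p = 0.0835). The sum of this list was lower in every GnRH array (1849 to 2106) than in any control (2317 to 2649). The members did not move together: 6 of the 9 differences were below 0 and 3 above, namely S100b (0.15), Aldh1a2 (0.074) and Sox2 (0.018). For the posterior lobe, 0 of 7 passed, with 3 at an unadjusted p under 0.05: Nefl higher (0.45), Avp (-0.57) and Oxt (-0.43) lower. The sum of the posterior lobe list was 940 to 1005 in controls and 566 to 966 with GnRH, lowest in GnRH 3. For macrophages and leukocytes 0 of 10 passed, with 1 at an unadjusted p under 0.05, and the sums were 1097 to 1288 in controls and 1144 to 1376 with GnRH. For red blood cells 0 of 3 passed, with 0 at an unadjusted p under 0.05, and the sums were 1319 to 2922 and 1559 to 2478, lowest in control 3. Of the hormone cell markers 1 of 10 passed, with 3 at an unadjusted p under 0.05, and the sums were 49580 to 54650 in controls and 52970 to 55550 with GnRH. The marker that passed was Nr5a1, a transcription factor of gonadotropes, which was higher with GnRH by 0.54 ± 0.096 (limma adjusted p = 0.0471), and by 0.49 with the Xist level as a term, where it did not pass (limma adjusted p = 0.116). A second Nr5a1 probe set gave 0.39 ± 0.17 and did not pass (limma adjusted p = 0.398). No marker was listed at 0. The part of cell composition in the collagen differences was not tested.

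Genes that fold, modify, trim, bind, sense or degrade collagen were read in 7 lists with 71 measured genes of 89. Loxl1, a lysyl oxidase-like enzyme that crosslinks elastin and collagen, rose and was the only one of the 71 to pass. It had 7.44, 7.46 and 7.33 in controls and 8.33, 8.20 and 8.21 with GnRH. The groups were far apart, with control 3 close to the other controls, and the rise was 0.84 ± 0.087, or 1.79-fold (limma adjusted p = 0.00586). The rise was also seen with the Xist level as a term, at 0.91 ± 0.11 (limma adjusted p = 0.00389). Of the 71 genes, 1 passed as higher and 0 as lower, where 0.422% of all probe sets passed as higher and 0.0419% as lower. Differences lay above 0 in 37 genes and below 0 in 34, with a median of 0.020. Over all probe sets, 13236 differences lay above 0 and 17806 below, with a median of -0.025. At an unadjusted p under 0.05, 13 were higher and 10 lower, where 6.6% of all probe sets were higher and 5.66% lower.

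Among enzymes and carriers that fold and modify collagen, 16 of 18 differences were above 0 with a median of 0.22, and 0 passed (6 higher and 0 lower at an unadjusted p under 0.05, against 6.6% and 5.66% of all probe sets). The smallest p-values were in P3h3 (0.71 ± 0.13) and P3h1 (0.37 ± 0.091), both of the prolyl hydroxylase family, and in Fkbp10 (0.62 ± 0.12), a folding isomerase. Their limma adjusted p-values were 0.0546, 0.131 and 0.0655. In this list control 3 lay above controls 1 and 2 by a median of 0.34, the opposite of its position for collagen chains, and the median difference was 0.35 without control 3 and 0.016 against it alone. P3h4, singled out after its values were seen, depended on the probe set. Its brightest probe set had a difference of 0.031, while the other 4 had 0.64 to 0.999, of which 2 passed (limma adjusted p = 0.0116 and 0.0494). With the Xist level as a term 1 of them still passed (limma adjusted p = 0.0338) and the other did not (limma adjusted p = 0.102).

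Among genes that trim and crosslink procollagen, 5 of 7 differences were above 0. The median was 0.084, with 0.10 without control 3 and 0.19 against it alone. Besides Loxl1, Pcolce, an enhancer of propeptide removal, had 0.61 ± 0.14 and Lox, the founding lysyl oxidase, 0.39 ± 0.12, with limma adjusted p-values of 0.118 and 0.245. In both genes all GnRH arrays lay above all controls.

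Other components of the matrix lay in both directions and none passed. Laminins and other basement membrane proteins had 5 of 14 differences above 0 and a median of -0.13. Lamb1, the laminin beta-1 chain, had 0.63 ± 0.16, the linker nidogen Nid2 -0.36 ± 0.15 and the laminin chain Lama5 0.32 ± 0.15, with limma adjusted p-values of 0.140, 0.390 and 0.410. Control 3 lay nearer to the GnRH arrays than controls 1 and 2 did in Lamb1 and Nid2, and further from them in Lama5. Proteins that bind fibrils had 4 of 13 above 0 and a median of -0.13, with -0.19 without control 3 and -0.048 against it alone. Tnc, the matrix glycoprotein tenascin C, had 0.99 ± 0.21, whereas Dcn, the fibril-coating proteoglycan decorin, had -0.63 ± 0.18 and Postn, periostin, -0.30 ± 0.096. Their limma adjusted p-values were 0.0852, 0.194 and 0.247. Control 3 lay nearer to the GnRH arrays than controls 1 and 2 did in Tnc and Dcn, and further from them in Postn.

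Collagen receptors also lay in both directions. Their median was -0.020, with -0.092 without control 3 and -0.097 against it alone. Of 5 measured, Ddr1, a receptor tyrosine kinase that binds collagen, had 0.53 ± 0.15, its relative Ddr2 -0.24 ± 0.096 and the integrin chain Itga1 -0.54 ± 0.16, with limma adjusted p-values of 0.182, 0.339 and 0.213. Of the 7 collagen-degrading enzymes, 6 had differences below 0 and the median was -0.15. It was -0.18 without control 3 and -0.10 against that array alone. Mmp13, a collagenase, had 4.58, 4.56 and 4.64 in controls and 4.17, 4.15 and 4.15 with GnRH, a difference of -0.43 ± 0.081 (limma adjusted p = 0.0540). The gelatinase Mmp9 had -0.26 and the protease Ctsk -0.19, with limma adjusted p-values of 0.399 and 0.482. Of the 7 genes of TGF-beta signalling, a known inducer of collagen, Tgfb1 had 0.37 ± 0.083, Ccn2, a target of the pathway, -0.51 ± 0.20 and Tgfb2 -0.098 ± 0.097, with limma adjusted p-values of 0.0984, 0.334 and 0.719.

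**Figure D5:**
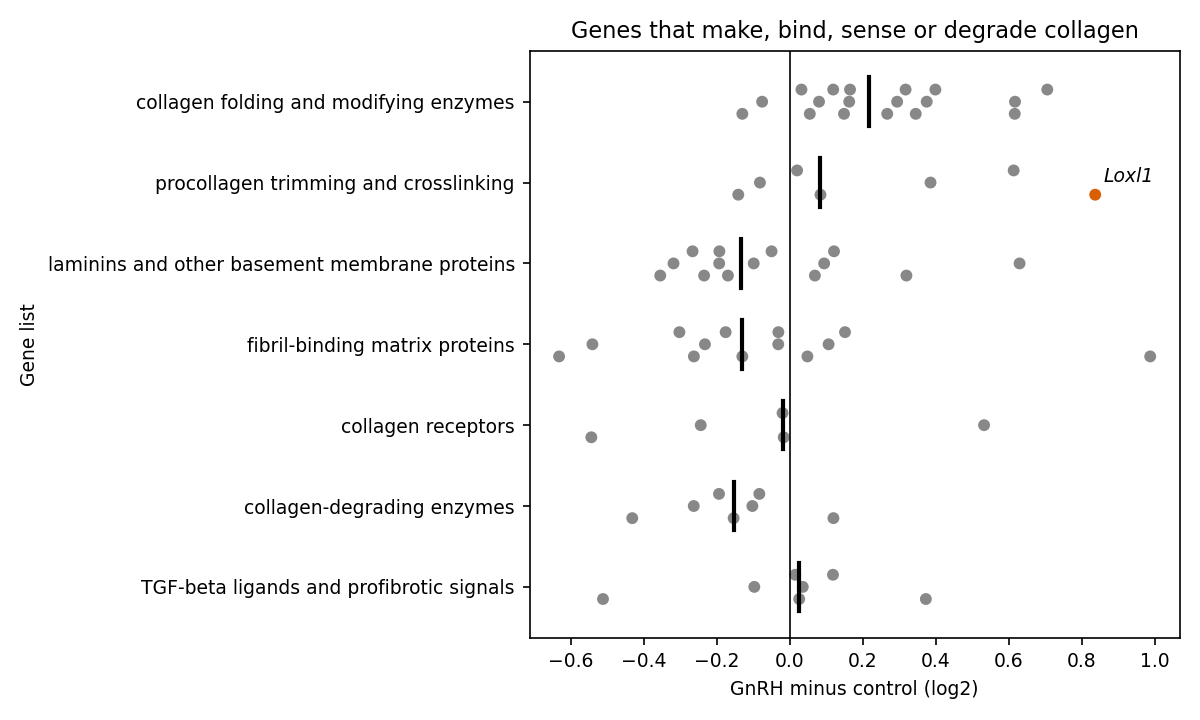
Each point gives the GnRH minus control difference on the log2 scale of 1 gene of the 7 lists, the black bar is the median of the list, and orange marks an adjusted p under 0.05. Loxl1 is the orange point at 0.84, and the bar of the folding and modifying list lies at 0.22.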

How the data were processed

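The 6 samples were grouped by title. Deposited intensities, on a linear scale, were made by the authors with RMA per the submitters' processing notes (background removal, normalization and summary of probes into probe sets); its version and filters are not given in the sources read here. Gene names came from the array annotation, matched to GRCr8 gene identifiers: 20826 probe sets had 1 symbol, 436 several and 9780 no listing. Intensities were turned into log2 with no pseudocount and no filter, and fitted with limma 3.58.1 in R 4.3.3 (lmFit, eBayes; 2-sided, no covariate). A fit with the Xist level (above or below its midpoint over the arrays) as a term was added after the data were seen. The number of arrays limits the precision. The members, gene lists and tests were chosen with earlier results of these data known. Named genes were 12 chains chosen for their role, chains with an unadjusted p under 0.05, the largest difference in each direction per class, and up to 3 genes of each other list with the smallest p. The fit was tested on simulated data. Promoters were read from a RefSeq table.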

Additional observations from a re-analysis of the deposited data

How the results depend on the processing

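The count of 0 collagen genes past the threshold held with median centring, quantile normalization, cyclic loess, dim probe sets left out, an intensity trend, robust variances, 16 added before log2 and gene means (probe sets of a gene averaged). It was 1 at an adjusted p under 0.1, 8 (5 higher, 3 lower) with array weights (0.298 for control 3, the lowest), 2 against control 3 alone (Col1a2 at 0.96 and Col25a1), and 4 with the Xist level as a term, an alternative chosen after seeing the data. Leaving out 1 array gave 0 to 2, the 2 being Col6a1 and Col25a1 without control 3. All probe sets past the threshold, 144 with all arrays, numbered 93 with cyclic loess, 90 with quantile normalization, 88 with gene means, 74 with 16 added, 341 at an adjusted p under 0.1, 265 against control 3 alone, 362 with the Xist level as a term, 3020 with array weights and 20 to 2309 with 1 array left out, highest without control 3 and lowest without GnRH 2. Companion genes past the threshold, 1 with all arrays, numbered 2 with gene means, 3 with robust variances, 3 against control 3 alone, 4 with the Xist level as a term, 6 at an adjusted p under 0.1, 24 with array weights and 1 to 20 with 1 array left out. The basement membrane median was 0.31 against control 3 alone, 0.16 without dim probe sets and -0.17 to 0.061 with 1 array left out; the median of the other class was 0.068 against control 3 alone and -0.089 to 0.0090. With the Xist level as a term both medians were as against control 3 alone. Against control 3 alone, and with that term, the sign turned for Col15a1 (0.13), Col4a4 (0.035), Col5a1 (-0.078), Col6a1 (0.12) and Col6a2 (0.49). With 1 array left out it also turned for Col1a1 (-0.028 to 0.16, below 0 without GnRH 2), Col6a3 (-0.29 to 0.018, above 0 without GnRH 3) and Col6a2 (-0.28 to 0.15, above 0 without control 1, control 2 at 0.057 or GnRH 3 at 0.023). The causes were not tested. With the replicate block, Col1a2 passed at 0.61 (limma adjusted p = 0.0362), so that 1 collagen gene passed, with 3 companion genes and 215 probe sets. Same-numbered samples had correlations of their deviations of 0.159, -0.0489 and 0.156, and the highest was 0.18, between control 2 and GnRH 1. Whether the numbers pair the samples cannot be decided from these values. Control 3 differed from controls 1 and 2, while the GnRH arrays shared a pattern, so the deviations of the controls also carry that split.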
